A study of Homo sapiens with 3 samples.

Results

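The genes described here are neighbours of MYC on the long arm of chromosome 8, with MYC itself left out. They were chosen by symbol, not by level, but with earlier results of these data known. Of the 10 symbols, 8 had a row in the table of 27574 genes (PVT1, FAM84B, POU5F1B, TRIB1, NSMCE2, GSDMC, ASAP1 and FAM49B), and the long non-coding RNA genes CASC8 and CASC11 were not analysed here. RNA sequencing read counts came from 3 libraries of 1 group, H82_R, named here replicates 1, 2 and 3. H82 is a long-established human cell line from small cell lung cancer, grown here in RPMI1640 medium with serum. All 3 libraries carry the same treatment label, etoposide with cisplatin, and no dose or time is stated. Etoposide is a poison of type II topoisomerases, and cisplatin crosslinks DNA. The labels name no untreated or parental sample, do not say what R stands for, and do not say that the libraries came from separate cultures. The values below are therefore levels in these cells, and p-values measure only the spread between these libraries, which may be technical.

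The stretch of chromosome around MYC is a gene-poor region in which many enhancers and long non-coding RNA genes surround few protein-coding genes. MYC is a transcription factor gene that is often amplified in cancer, and such amplified segments often carry PVT1 and other neighbours along. H82 is known as a line with MYC amplification; DNA copy number was not measured in these data. In RNA from bulk cells, fewer cells that express a gene and less RNA per cell cannot be told apart.

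The libraries held 25013265, 42610181 and 23868201 counts in replicates 1, 2 and 3. Counts were scaled to a common library size and are given as CPM, the usual unit of counts scaled by library size. Genes are called detected where each of the 3 libraries held 10 counts or more, which 14612 genes did. Where no read was counted, a level of up to 0.121, 0.0702 and 0.125 CPM remains possible (3 counts). These limits, like the intervals below, treat reads as independent and cover only counting error within each library. The labels state no molecular identifiers. All 6 fixed neuroendocrine markers were detected, among them NEUROD1 (371 ± 39.7 CPM, SD, n = 3) and SYP (207 ± 6.20 CPM). Of 6 lung epithelial markers 2 were detected, both below the median gene in CPM. Per kb AGER also stood below it, and FOXJ1 was not distinguished from it. NKX2-1, SFTPC and SCGB1A1 had no count in any library. Of 6 markers of leukocytes, fibroblasts and endothelium 4 were detected, 3 below the median gene and the macrophage marker CD68 (22.6 ± 3.71 CPM) not distinguished from it in CPM and above it per kb, while the leukocyte marker PTPRC had 6, 10 and 7 counts.

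Of the 8 neighbour genes, 7 were detected, against 53% of all genes. In CPM 6 of the 7 stood above the median detected gene of the same libraries, where 45.9% of all detected genes stood (limma-trend one-sample test, two-sided, Benjamini-Hochberg adjusted over 14612 genes, threshold 0.05). None stood below it, where 46.1% of all detected genes stood; the count was also 0 at an unadjusted p under 0.05 and with limma-voom. It was 1 where genes had to reach 1 CPM in every library, 1 against the median protein-coding gene and 2 against the upper quartile of detected genes. The exceptions were NSMCE2, which the test did not set apart from the median gene, and GSDMC, which was not detected. All 8 genes except PVT1 are protein-coding, as are the genes of the family and partner lists below. Among protein-coding genes alone, 69.7% were detected, and of those 49.7% stood above the median detected gene and 41.7% below it in CPM. The median of the 7 detected genes was 2.14 on the log2 scale above the median detected gene, whose own level was 25.2 CPM. Together the 8 genes took 0.0921%, 0.0888% and 0.0908% of the counts of replicates 1, 2 and 3. Per kilobase of exon (kb), the scale on which levels of different genes can be compared, all 7 stood above the median gene, where 45.3% of 13517 detected genes with a known exon length stood, and 0 below it, where 45.0% stood.

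Ordered by CPM per kb, POU5F1B led with 62.1, followed by PVT1 (26.2), ASAP1 (22.7), FAM84B (18.4), FAM49B (12.2), TRIB1 (7.98) and NSMCE2 (7.36), and GSDMC stood at 0.0101. The ranges over the 3 libraries overlapped between PVT1 and ASAP1 and between TRIB1 and NSMCE2, and the other neighbours in the order did not overlap. Within each library, however, PVT1 was above ASAP1 and TRIB1 above NSMCE2 in all 3, and without replicate 2, as without replicate 3, 0 pairs overlapped. The order also depends on the length used. Per kb of the longest annotated transcript, a choice made after seeing the data, PVT1 came first (84.7) and POU5F1B next (64.7). The merged exons of the many PVT1 transcripts are much longer than any 1 of them (5493 against 1699 bases). Per kb of the longest transcript, FAM49B (24.4) also stood above FAM84B (18.4), and NSMCE2 (18.4) above TRIB1 (9.09).

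**Figure D1:**
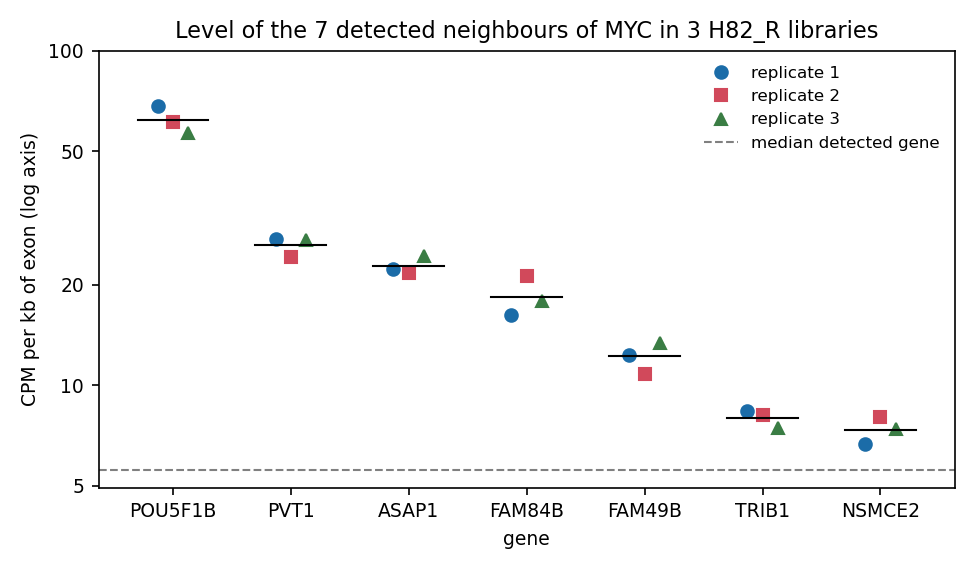
CPM per kb of exon (log axis) of the 7 detected neighbour genes, 1 symbol per replicate, with a bar at the mean of 3 and a dashed line at the median detected gene (5.59 CPM per kb). POU5F1B lies highest, at 56.9 to 68.3, and NSMCE2 lowest, at 6.66 to 8.03; GSDMC is left out because it was not detected.

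PVT1 is a long non-coding RNA gene whose start site lies 0.059 Mb downstream of that of MYC and which hosts several microRNAs. On GRCh38 it spans positions 127794533 to 128101253 of chromosome 8. It had 3724, 5665 and 3575 counts in replicates 1, 2 and 3, which are 150, 133 and 149 CPM. Replicate 2 was the lowest and the others were nearly level. Its mean of 144 ± 9.82 CPM ranked 7 (12 per kb) among the 158 detected genes that the reference annotation lists as long non-coding RNA. In all, 7452 gene names matched no annotation and were not ranked. PVT1 stood 2.52 ± 0.07 (SE) above the median detected gene on the log2 scale (limma, adjusted p = 1.01e-08). In the reference annotation 6.48% of its exon bases also belong to a gene on the same strand, the microRNA gene MIR1204 among them, and 2.31% lie opposite a gene on the other strand.

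POU5F1B is a copy of POU5F1, the gene of the pluripotency factor OCT4, that arose through reverse transcription of its RNA. It starts 0.413 Mb upstream of MYC (127322183 to 127420066) and lies within CASC8. It was the highest of the neighbour genes in CPM and per kb of exon. Its counts were 8417, 12951 and 6765, or 339, 303 and 282 CPM. Replicate 1 was highest and replicate 3 lowest. The mean of 308 ± 28.6 CPM lay above 96.9% of detected genes and 3.61 ± 0.07 above the median gene on the log2 scale (limma, adjusted p = 2.47e-09).

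The parent gene POU5F1 had only 6, 31 and 9 counts. POU5F1B counts were 1403 times those of POU5F1 in replicate 1 (95% exact Clopper-Pearson interval 644 to 3824), 418 times in replicate 2 (294 to 615) and 752 times in replicate 3 (396 to 1645). The geometric mean ratio per kb of exon was 444. How the authors' counting treated reads shared by the copies is not given in the sources used here, so the level of either gene is uncertain to that extent. Of all stretches of 50 bases in the annotated POU5F1B transcripts, 25.6% also occur in a transcript of another gene, and of stretches of 100 bases 14.2%. The gene sharing most of them was PCAT1, a long non-coding RNA gene on the same strand that was not analysed here, with 14.4% and 11.5%. For POU5F1, 37.4% of stretches of 50 bases and 13.6% of stretches of 100 bases occur in another gene. At 50 bases the largest part of these was shared with POU5F1B (16.4%). Other pluripotency genes were at or near 0: SOX2 had 0, 1 and 1 counts, NANOG had 0, 2 and 0, and KLF4 and POU5F2, both detected, stood at 0.171 ± 0.0347 and 0.0832 ± 0.0233 CPM per kb. Of the 6 genes in this list 3 were detected, against 53% of all genes. POU5F1B stood above the median gene and 2 below it (45.9% and 46.1% of all detected genes).

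FAM84B, also called LRATD2, encodes a protein with a lecithin retinol acyltransferase-like domain and starts 1.177 Mb upstream of MYC (126552442 to 126558393). It had 2175, 4899 and 2320 counts, or 87.6, 115 and 96.8 CPM. Here replicate 2 was the highest, the opposite of PVT1. The mean was 99.7 ± 13.8 CPM, 1.98 ± 0.09 above the median gene on the log2 scale (limma, adjusted p = 1.49e-07). Of its exon bases, 21.5% lie opposite PCAT1, and without the strand setting of the counting, reads of FAM84B and PCAT1 cannot be told apart there. Its paralog FAM84A reached 16.7 ± 2.15 CPM and stood below the median gene, and per kb FAM84B was 9.28 times FAM84A. Of the 8 genes of the LRAT-domain family, 4 were detected, against 53% of all genes. FAM84B stood above the median gene, and FAM84A and LRAT (0.680 ± 0.109 CPM) below it (45.9% and 46.1% of all detected genes). HRASLS (23.9 ± 3.29 CPM) was not distinguished from it in CPM. HRASLS also stood above the median gene per kb of exon, and its range there (18.7 to 23.7 CPM per kb) overlapped that of FAM84B (16.2 to 21.2).

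TRIB1 and NSMCE2 lie next to each other, 2.305 and 2.644 Mb upstream of MYC. They were the lowest detected neighbour genes in CPM and per kb of exon. On GRCh38 TRIB1 spans positions 125430321 to 125438405 and NSMCE2 positions 125091679 to 125367120, both on the forward strand. TRIB1 encodes a pseudokinase that brings the ubiquitin ligase COP1 to C/EBP transcription factors. Its 860, 1436 and 740 counts were 34.6, 33.6 and 30.9 CPM, the most even values of the neighbour genes in CPM (coefficient of variation 5.86%). It stood 0.40 ± 0.08 above the median gene on the log2 scale (limma, adjusted p = 0.00214). This call was lost when genes had to reach 1 CPM in every library (adjusted p = 0.348) and against the median protein-coding gene (adjusted p = 0.0968), with adjusted p from 9.13e-15 to 0.348 over its alternatives.

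In CPM, all 7 detected genes of the 8 in the tribbles, COP1 and C/EBP list stood above the median gene, where 45.9% of all detected genes stood. Per kb of exon, 6 stood above it and DET1, a partner of COP1, stood below it (log2 difference -0.31, limma, adjusted p = 0.0296). Of detected genes with an exon length, 45.3% stood above it and 45.0% below it per kb. TRIB1 and TRIB2 (7.98 ± 0.468 and 7.62 ± 0.429 CPM per kb) overlapped. TRIB3, the stress-induced family member, was higher in every library, at 17.6, 40.1 and 24.7 CPM per kb, and its replicate 2 was highest. STK40 had the highest mean of the list (28.8 ± 4.62 CPM per kb), less than 1 SD above those of CEBPB (28.0 ± 18.1) and TRIB3 (27.5 ± 11.5), and DET1 the lowest of the detected genes (4.51 ± 0.614). COP1 itself, listed under its older symbol RFWD2, stood at 88.3 ± 4.03 CPM. Of its substrates, CEBPA had 2, 5 and 0 counts, while CEBPB reached 23.4, 93.2 and 47.5 CPM, again highest in replicate 2.

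NSMCE2 encodes the SUMO ligase subunit of the SMC5/6 complex, which acts in DNA repair and at stalled replication forks. It had 495, 1027 and 529 counts, or 19.9, 24 and 22.1 CPM. Replicate 2 was highest and replicate 1 lowest. The mean of 22.0 ± 2.05 CPM was 0.19 ± 0.10 below the median gene on the log2 scale, which did not pass the test (limma, adjusted p = 0.101). Per kb of exon NSMCE2 stood 0.41 ± 0.09 above the median gene (adjusted p = 0.00273), whereas the difference was -0.50 (adjusted p = 0.00167) where genes had to reach 1 CPM in every library and -0.42 (adjusted p = 0.00398) against the median protein-coding gene. With every gene that had a count kept it was 2.10 above, so its side depends on the scale and the filter, and its call on the reference as well. The adjusted p ranged from 2.15e-12 to 0.763 over its alternatives. Of its exon bases, 5.42% lie opposite WASHC5.

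Of 9 genes for the SMC5/6 complex and its partners, 8 were detected, against 53% of all genes. In CPM 5 stood above the median gene and 1 below (45.9% and 46.1% of all detected genes), and 2 were not distinguished. On the per-kb scale 4 stood above and 1 below (45.3% and 45.0% of detected genes with an exon length), and 3 were not distinguished. NSMCE4A had the highest mean per kb (13.5 ± 1.16 CPM per kb), followed by the core ATPase genes SMC5 (12.7 ± 4.04) and SMC6 (9.86 ± 2.19). The ranges of SMC5 and SMC6 overlapped. In replicates 1 and 3 SMC5 was above NSMCE4A (13.7 against 12.1 and 16.2 against 13.9 CPM per kb). EID3, a subunit better known from the germ line, was lowest at 0.594 ± 0.129 CPM per kb. NSMCE1 encodes the RING-domain subunit. NSMCE2 had 0.865, 1.01 and 1.15 times the counts of NSMCE1 in replicates 1, 2 and 3 (two-sided exact sign-flip test, p = 1). In CPM per kb NSMCE2 was the higher of the pair in all 3 libraries, by 1.26 times on average (geometric mean). NSMCE3 had no count in any library, and the annotation used for the counting is not given in the sources used here.

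On the other side of MYC, 3 protein-coding genes follow each other beyond PVT1. GSDMC, a gasdermin gene whose cleaved product forms membrane pores, starts 2.051 Mb downstream of MYC (129748196 to 129786888). It had 0, 2 and 1 counts, which are 0.0468 CPM in replicate 2 and 0.0417 CPM in replicate 3, below the limit that a count of 0 allows in each library. Of the 6 gasdermin genes 4 were detected, against 53% of all genes. All 4 stood below the median gene in CPM, where 46.1% of all detected genes stood. They also stood below it per kb, where 45.0% of detected genes with an exon length stood. DFNB59 (0.816 ± 0.330 CPM per kb) and GSDMB (0.742 ± 0.230) had the highest means, the gasdermin E gene DFNA5 stood at 0.385 ± 0.0285 and GSDMD was the lowest detected (0.265 ± 0.113). GSDMC had fewer counts than GSDMD and DFNA5 in all 3 libraries.

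FAM49B, also called CYRIB, encodes a protein that binds RAC1 and restrains actin assembly by the WAVE complex, and starts 2.282 Mb downstream of MYC (129839593 to 130017129). Its 2794, 4211 and 2930 counts were 112, 98.5 and 122 CPM. Replicate 2 was lowest and replicate 3 highest. The mean of 111 ± 11.9 CPM was 2.14 ± 0.08 above the median gene on the log2 scale (limma, adjusted p = 5.27e-08). Its paralog FAM49A stood below the median gene at 4.92 ± 0.363 CPM. FAM49B had 21.7, 19.5 and 27.1 times as many counts as FAM49A, and 13.4 times per kb.

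All 13 genes of the RAC1 and WAVE list were detected, against 53% of all genes. In CPM 10 stood above the median gene and 3 below, against 45.9% and 46.1% of all detected genes. On the per-kb scale 9 stood above and 3 below (45.3% and 45.0% of detected genes with an exon length), and 1 was not distinguished. RAC1 was highest at 89.9 ± 1.43 CPM per kb, followed by WASF2, which encodes 1 of the WAVE proteins (51.4 ± 3.21). The WAVE subunit gene CYFIP1 was lowest at 0.0540 ± 0.0130 CPM per kb, whereas its paralog CYFIP2 reached 6.92 ± 0.546. The third gene below the median, besides FAM49A and CYFIP1, was NCKAP1L (0.463 ± 0.219 CPM per kb), a form of the NCKAP1 subunit known from blood cells.

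ASAP1 encodes a GTPase-activating protein for ARF GTPases, which act in membrane traffic and focal adhesions, and starts 2.708 Mb downstream of MYC (130052104 to 130443660). It had 4568, 7627 and 4816 counts, or 184, 178 and 201 CPM. Replicate 3 was highest. The mean of 188 ± 11.7 CPM was 2.90 ± 0.07 above the median gene on the log2 scale (limma, adjusted p = 4.70e-09), and in neither annotation check did its exons or transcript stretches coincide with those of another gene. The paralogs ASAP2 (13 ± 2.21 CPM) and ASAP3 (17.1 ± 0.836 CPM) both stood below the median gene, and per kb ASAP1 was 12.7 times ASAP2. Of 15 genes for such activating proteins and ARFs, 14 were detected, against 53% of all genes. In CPM 8 stood above the median gene and 4 below (45.9% and 46.1% of all detected genes), and 2 were not distinguished. The per-kb counts were the same, at 8, 4 and 2, against 45.3% above and 45.0% below of detected genes with an exon length. ARF1 was highest (116 ± 8.14 CPM per kb) and ACAP1 the lowest detected (0.229 ± 0.0767). FAM49B and ASAP1, which lie side by side, held a ratio of 0.612, 0.552 and 0.608 in counts.

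**Figure D2:**
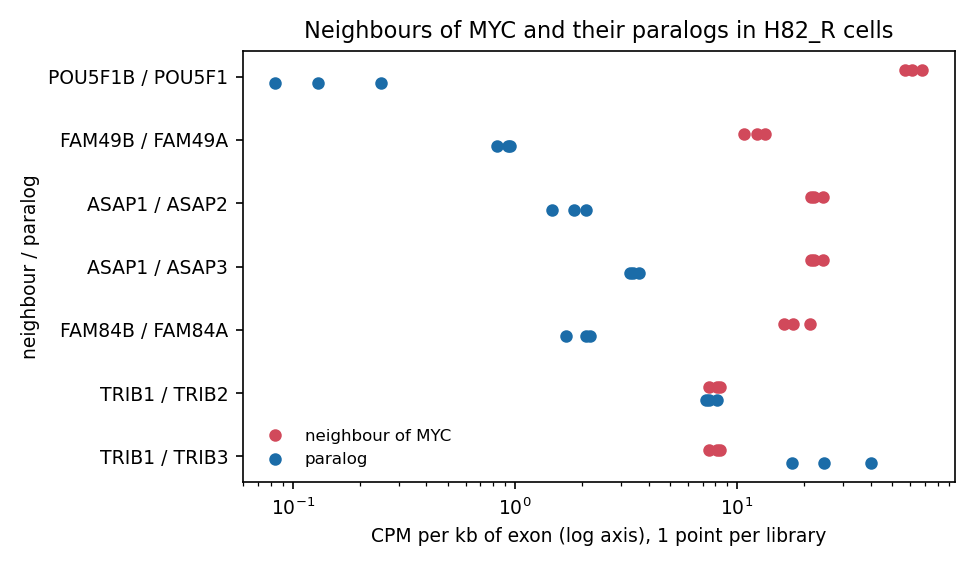
CPM per kb of exon (log axis, 1 point per library) of neighbour genes in red and of their paralogs elsewhere in the genome in blue. The points of POU5F1B, FAM49B, ASAP1 and FAM84B lie apart from and above those of their paralogs, those of TRIB1 and TRIB2 overlap, and TRIB3 lies above TRIB1.

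Of the 21 gene pairs fixed for a ratio, 19 had a row for both genes and 16 a ratio above 0 in every library. In 14 of the 16 the order of the counts was the same in all 3 libraries. With 3 libraries the two-sided exact sign-flip test cannot go below p = 0.25, and all 14 reached it, so no ratio can pass a threshold of 0.05.

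MYC itself, with 23317, 27381 and 19072 counts, stood at 939, 641 and 796 CPM. PVT1 had 0.160, 0.207 and 0.187 times the counts of MYC in replicates 1, 2 and 3, and POU5F1B 0.361, 0.473 and 0.355 times. ASAP1 had 0.196, 0.279 and 0.253 times and FAM49B 0.120, 0.154 and 0.154 times. FAM84B had 0.0933, 0.179 and 0.122 times the counts of MYC, the widest spread of these ratios on the log2 scale (SD 0.47). TRIB1 had 0.0369 to 0.0524 times and NSMCE2 0.0212 to 0.0375 times. The ratio to MYC was lowest in replicate 1 for PVT1, FAM84B, TRIB1, NSMCE2, ASAP1 and FAM49B, and in replicate 3 for POU5F1B. MYC exceeded all 8 genes in all 3 libraries, and per kb of exon by 4.21 times for POU5F1B, 9.97 for PVT1 and 11.5 for ASAP1.

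Counts differed between libraries by more than counting error for 6 of the 7 detected neighbour genes, against 68.7% of all detected genes (chi-square test of homogeneity, Benjamini-Hochberg adjusted over all detected genes). The exception was TRIB1 (adjusted p = 0.0833). Without replicate 1 NSMCE2 no longer passed, without replicate 3 ASAP1, and without replicate 2 both PVT1 and NSMCE2, which leaves 5, 5 and 4 genes, against 52.8%, 51.1% and 39% of all genes tested on the same libraries. These differences were small in size: the highest library exceeded the lowest by 1.31 times for FAM84B, 1.24 for FAM49B, 1.21 for NSMCE2, 1.20 for POU5F1B, 1.13 for PVT1 and ASAP1 and 1.12 for TRIB1, and by 1.47 times for MYC. The SD of log2 CPM of the 7 genes lay between the percentiles 19.6 (TRIB1) and 57.5 (FAM84B) of all detected genes. The libraries did not order these genes alike. Replicate 2 was highest for NSMCE2 and FAM84B and lowest for PVT1, FAM49B, ASAP1 and MYC.

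**Figure D3:**
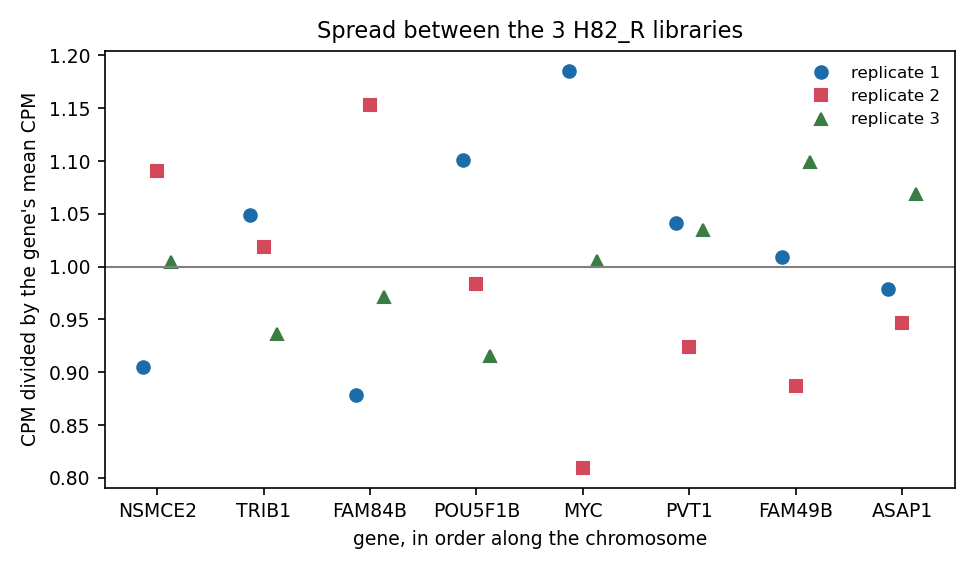
CPM in each replicate divided by the gene's mean over the 3 replicates, for the 7 detected neighbour genes and MYC in their order along the chromosome. MYC is most spread out and PVT1, TRIB1 and ASAP1 least, and replicate 2 (red squares) lies above 1 for NSMCE2, TRIB1 and FAM84B and below 1 for the other 5 genes.

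In all, 42 genes of the table have an annotated start within 5 Mb of MYC. Besides the 8 neighbour genes and MYC these are 33, of which 24 (72.7%) were detected, against 53% of all genes. Of the 24, 13 stood above the median gene (54.2%, against 45.9% of all detected genes). Below it stood 10 (41.7%, against 46.1%), and 1 was not distinguished. Their median was 0.62 above the median gene on the log2 scale. On chromosome 8 beyond this window, 448 of 642 genes (69.8%) were detected, with a median of 0.56. Of the 448, 244 stood above the median gene (54.5%) and 167 below it (37.3%). Among protein-coding genes alone the medians were 0.92 in the window, 0.60 on the rest of the chromosome and 0.22 in the whole genome, and per kb of exon 0.73, 0.20 and 0.02. No test of these differences was made. The 33 genes were divided unevenly: 21 of 25 were detected on the upstream side and 3 of 8 on the downstream side.

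The highest of these other genes in CPM were ATAD2, an ATPase gene with a bromodomain (302 ± 38.0 CPM), SQLE, which encodes the sterol synthesis enzyme squalene epoxidase (193 ± 13.2 CPM), and FAM91A1 (126 ± 22.7 CPM). The lowest detected in CPM was FAM83A (1.02 ± 0.239 CPM). Per kb of exon, SQLE (44.9) and ATAD2 (42.4) stood below POU5F1B and above PVT1, and the lowest detected gene was KCNQ3 (0.0943).

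The 3 other analysed genes with an annotated start within 2 Mb of MYC are all long non-coding. None of them stood above the median gene in CPM or per kb. CCAT2, which lies within the span of POU5F1B on the same strand, had 11.7, 8.89 and 13.6 CPM and stood below the median gene in CPM (log2 difference -1.15 ± 0.14, limma, adjusted p = 6.73e-05). This call was lost per kb of exon, where the direction turned, to 0.21 ± 0.12 above the median gene (adjusted p = 0.121). PRNCR1, named here after its values were seen, had 14.2, 5.57 and 21.1 CPM. Its highest library exceeded its lowest by 3.78 times, and its SD of log2 CPM lay at percentile 99.6 of all detected genes. Of its exon bases 11.1% lie opposite a gene on the other strand, CASC19 among them, so its count is uncertain to that extent. CCDC26, also named after its values were seen, had 1, 13 and 2 counts and was not detected.

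**Figure D4:**
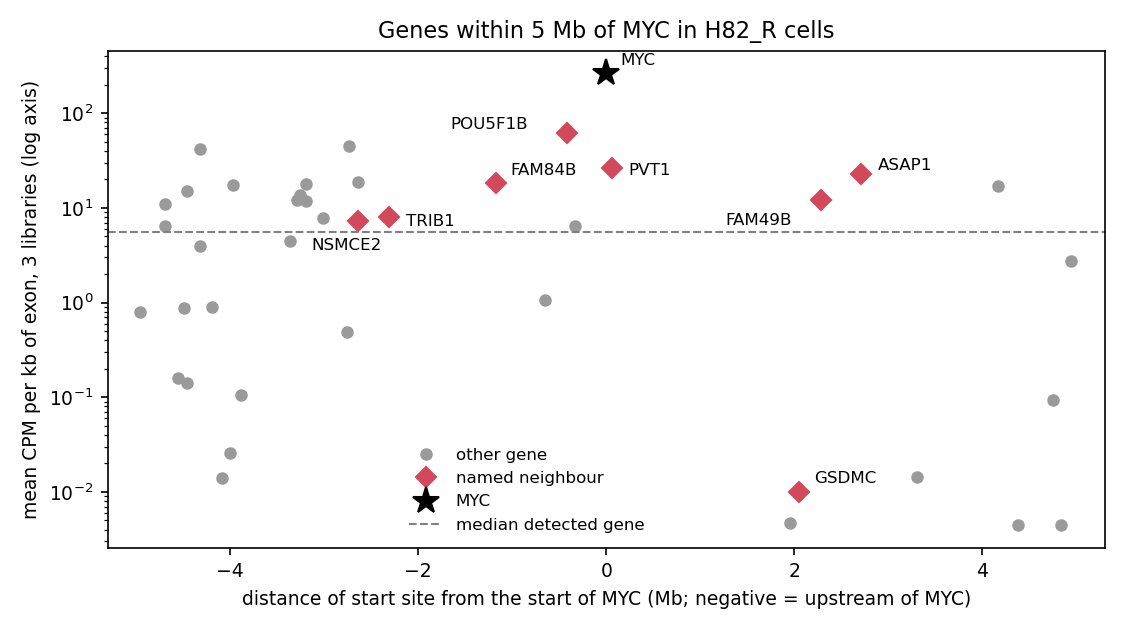
Mean CPM per kb of exon (log axis) of genes within 5 Mb of MYC against the distance of their start site from that of MYC; neighbour genes are red diamonds, MYC a star, other genes grey, and the dashed line is the median detected gene. All neighbour genes except GSDMC lie above the line; OC90, with no count in any library, is left out.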

How the data were processed

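The authors deposited a table of raw read counts per gene symbol, with the 3 libraries as columns. Per the labels' protocols, TRIzol was used on total RNA and libraries followed Illumina's instructions. The submitters' processing notes name STAR 2.6.1b and the build hg38 without saying what each was used for. No counting program, annotation or strand setting is given in the sources used here. Of 27587 names, 13 had been turned into dates and were left out (0.0665% to 0.0736% of counts).

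CPM used TMM effective library sizes (edgeR 4.0.16). The one-sample moderated test of log2 CPM (prior count 2) minus that library's median over detected genes came from limma 3.58.1 in R 4.3.3. No contrast exists, so edgeR's and DESeq2's tests were not run. GENCODE release 29 (GRCh38, which is hg38) gave gene type, position and merged exon length; 19590 names matched directly and 468 through an older symbol, and 92.5% of detected genes had an exon length. Distances run from start site to start site. Shared stretches of 50 and 100 bases were searched in all annotated transcripts, on both strands. The tests were tested on simulated data. The members and lists were chosen with earlier results of these data known. Named were all members, MYC, the genes between MYC and the nearest members, the 3 highest and the lowest detected other gene within 5 Mb, and of each list the paralogs in fixed pairs and the highest and lowest detected gene, ranked per kb, a scale chosen after the values were seen; other list genes were also named after that. Alternatives were DESeq2 1.42.0 size factors, plain totals, 2 other filters, a prior count of 0.5, limma-voom, 2 other reference points, length scaling, other windows, a threshold of 0.01 and leaving out each library.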

Additional observations from a re-analysis of the deposited data

How the results depend on the processing

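With limma-voom, plain totals, DESeq2 size factors or a prior count of 0.5, and without any 1 library, 6 neighbour genes stood above and 0 below the median gene. The count above was 5 with at least 1 CPM in every library, against the upper quartile and against the median protein-coding gene, and 7 per kb and with any gene that had a count kept. The count below was 1 with at least 1 CPM in every library (NSMCE2), 1 with any gene that had a count kept (GSDMC), 1 against the median protein-coding gene (NSMCE2) and 2 against the upper quartile (TRIB1 and NSMCE2). NSMCE2 moved to 2.10 with any gene that had a count kept and to 0.41 per kb, and TRIB1 to -1 against the upper quartile. Of the 33 other genes within 5 Mb, 13 stood above and 10 below; 7 stood above against the upper quartile, 0 above and 2 below within 2 Mb, and 22 above and 19 below within 10 Mb. Partner list genes, without the neighbour genes, numbered 27 above and 16 below, and 15 and 28 against the upper quartile. The upper quartile lies higher by construction, and the windows hold other numbers of genes. Pairs of genes next in order whose ranges overlapped numbered 2, 1 by CPM, 1 per kb of the longest transcript, and 0 to 2 without 1 library. The mean log2 ratio of TRIB1 to TRIB2 was -0.08 in counts and 0.07 per kb. That of NSMCE2 to NSMCE1 was 0.00, with 0.11, 0.00 and -0.10 without replicates 1, 2 and 3. No paired analysis was possible because the labels form 1 group. Depth limits GSDMC, at or below 2 counts in every library.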
